A study of Mus musculus with 6 samples.

Results

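Srf and 9 immediate-early genes (Fos, Fosb, Jun, Junb, Egr1, Egr2, Egr3, Ier2 and Atf3) were followed in fetal mouse lung with and without Hopx. The genes were chosen by name, and every probe set that the platform annotation assigns to exactly 1 of them was used, which gave 14 probe sets of 45037 and 10 genes of 18193. Lungs were dissected from mouse embryos at stage E16.5 on a mixed strain background. The groups were 3 Hopx-null (Hopx -/-) and 3 wild-type (Hopx +/+) lungs, labelled as biological replicates, with 1 single-channel Affymetrix array per lung. The labels do not say how the null allele was made or whether a sample pooled several embryos. All values are log2 expression values, so a difference of 1 is a doubling of signal, and the number of arrays limits the precision.

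Serum response factor, the product of Srf, is a MADS-box transcription factor that binds a short element called the CArG box. When growth factors or mechanical tension reach a cell, SRF and its cofactors switch on immediate-early genes within minutes and without new protein synthesis. FOS and JUN proteins pair through leucine zippers to form AP-1, whereas EGR proteins are zinc-finger factors that bind GC-rich sites. Hopx encodes a small homeodomain protein without DNA-binding activity that is known, mainly from the heart, to restrain SRF-dependent transcription. The comparison therefore asks whether Srf or genes downstream of it read differently in lungs that lack Hopx.

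The sequences in front of some of these genes are shown with the matches to known promoter elements that they hold. RefSeq promoter windows (GRCm38.p6) were matched for 7 of the 10 genes: Srf, Fos, Fosb, Jun, Junb, Egr2 and Atf3. Egr1, Egr3 and Ier2 had no entry in the table. The windows searched held the 250 bases before each annotated start, on both strands. A CArG box is a run of 6 A or T bases between CC and GG, and it was found in front of 2 of the 7 genes, Srf and Egr2. Bases farther than 250 from a start were not searched, so a gene without a match may still have a box there. Among all 32851 windows of this length, 1.47% held one. That share is counted by window and not by gene, and Egr2 alone has 5 windows. The Srf window, at chr17:46556163-46556412 on the minus strand, held 2, at -82 to -73 and at -62 to -53 counted from the start. It also held the EGR-type element GCGNGGGCG (N for any base) at -101 to -93. CArG boxes and this element are in capitals; a TATAAA match on the opposite strand at -38 to -33 is left in lower case.
Srf: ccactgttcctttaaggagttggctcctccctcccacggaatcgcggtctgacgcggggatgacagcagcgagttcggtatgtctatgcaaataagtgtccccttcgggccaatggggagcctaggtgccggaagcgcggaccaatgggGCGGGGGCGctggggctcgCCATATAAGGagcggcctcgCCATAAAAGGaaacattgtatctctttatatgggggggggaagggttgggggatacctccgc

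Egr2 has several annotated starts and its windows overlap, so only the 30 bases around its 2 distinct CArG boxes are given. The first lies at chr10:67537484-67537513 and the second at chr10:67537787-67537816, both on the plus strand, with the box in capitals.
Egr2 site 1: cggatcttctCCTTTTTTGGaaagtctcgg
Egr2 site 2: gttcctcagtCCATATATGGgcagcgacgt

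The windows of Fos, Fosb and Atf3 are shown beside that of Srf because Srf with Atf3 and Fos with Fosb were the most alike pairs over single lungs. No CArG box was found in the windows of Fos, Fosb and Atf3. Fos (chr12:85473640-85473889, plus strand) held TGACGT, the core of a cyclic AMP response element, at -66 to -61, and the TATA element TATAAA at -33 to -28. Fosb (chr7:19310046-19310295, minus strand) held GCGNGGGCG at -50 to -42. Atf3 (chr1:191183334-191183583, minus strand) held TGACGT on the opposite strand at -8 to -3. Of all windows of this length, 6.47% held TGACGT, 4.7% held GCGNGGGCG and 12.4% held TATAAA. Egr2 also held TGACGT, on the opposite strand at chr10:67537813-67537818, after its second CArG box. The first bases of that match are in lower case at the end of Egr2 site 2. Jun and Junb held none of these motifs in the window. No match overlapped another, and the capitals below mark the elements named for Fos, Fosb and Atf3. The matches are letters found in a window and do not show binding.
Fos: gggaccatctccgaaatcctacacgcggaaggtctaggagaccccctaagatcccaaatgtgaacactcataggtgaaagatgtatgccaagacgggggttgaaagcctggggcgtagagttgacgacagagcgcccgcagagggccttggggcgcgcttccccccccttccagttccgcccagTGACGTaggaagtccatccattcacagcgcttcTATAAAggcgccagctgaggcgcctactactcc
Fosb: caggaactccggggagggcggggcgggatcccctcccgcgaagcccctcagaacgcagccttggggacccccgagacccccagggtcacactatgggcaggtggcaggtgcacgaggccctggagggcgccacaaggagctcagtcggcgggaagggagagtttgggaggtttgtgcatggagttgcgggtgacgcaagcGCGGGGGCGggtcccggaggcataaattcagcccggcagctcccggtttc
Atf3: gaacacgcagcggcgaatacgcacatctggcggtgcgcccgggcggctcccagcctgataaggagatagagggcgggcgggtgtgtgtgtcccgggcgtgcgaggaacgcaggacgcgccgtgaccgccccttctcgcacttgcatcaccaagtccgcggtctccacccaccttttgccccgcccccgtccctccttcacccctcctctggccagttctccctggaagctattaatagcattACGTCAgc

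The arrays were alike, with correlations of 0.989 to 0.995 between lungs. Both probe sets of Hopx, the targeted gene, were lower in every Hopx-null lung, and they were the only 2 of 45037 to pass limma's test (Benjamini-Hochberg adjusted p under 0.05). The brighter of them read 12.40 ± 0.13 (SD, n = 3) in wild-type and 10.49 ± 0.15 (SD, n = 3) in Hopx-null lungs. The other read 10.65 ± 0.28 (SD, n = 3) and 4.71 ± 0.21 (SD, n = 3), a 61.3-fold lower signal without Hopx. Lung identity held in every lung, with the 6 lung markers (Nkx2-1, Sftpc, Sftpb, Foxa2, Foxf1 and Tbx4) averaging 11.09 to 11.21. The lungs differed in ways the genotype labels do not give. Y-linked genes averaged 9.24 and 9.12 in wild-type replicates 2 and 3 and 2.47 to 2.57 in the other 4 lungs. Xist, the transcript of the inactive X chromosome, read 6.43 and 5.84 in those replicates and 12.22 to 12.68 in the other 4 lungs. By these genes wild-type replicates 2 and 3 read as male and all other lungs as female. Sex was therefore partly confounded with genotype. The 6 cartilage markers averaged 5.36 to 7.92 in wild-type and 5.39 to 6.52 in Hopx-null lungs, and the 6 cardiac muscle markers 9.95 to 11.12 and 10.34 to 10.77. Both averages were highest in wild-type replicate 3. For the cardiac markers this came from Nppa, at 9.47 there and 5.71 to 6.78 in the other lungs. Myl7 was also highest in that lung, whereas Myh6, Myl4, Tnnt2 and Actn2 were highest in Hopx-null replicate 3. Of the cartilage markers 1 read higher and 5 lower in Hopx-null lungs (median log2 difference -1.09), and of the cardiac markers 5 higher and 1 lower (median 0.14). Markers of skeletal muscle, oesophagus, thymus, erythroid cells and Schwann cells averaged 4.68 to 6.87 in single lungs and macrophage markers 8.83 to 9.09, and none passed limma's test. The 3' signal bias at Gapdh was largest in Hopx-null replicate 3, at 1.72 on the log2 scale against 1.42 to 1.60 elsewhere. With Y-linked signal as a covariate the differences reported below became 0.32 for Srf, 1.29 for Egr2, 0.49 for Egr3 and 0.40 for Atf3. No Hopx-null lung had Y-linked signal, so this fit compared the Hopx-null lungs mainly with wild-type replicate 1. With the 3' bias as a covariate the differences became 0.44 for Srf and -0.17 for Fos. The part of the cartilage and cardiac signal in the results was not tested. In whole lung, fewer cells of a type and less RNA per cell cannot be told apart.

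None of the 10 genes passed limma's test over all probe sets (eBayes, Benjamini-Hochberg), where 0.00444% of probe sets and 0.0055% of genes were called. Their adjusted p-values lay between 0.878 and 0.975. At an unadjusted p under 0.05 there were 2 of the 14 probe sets, both of Srf, against 4.77% of all probe sets; by gene this was 1 of 10, against 4.54% of all genes. With each gene represented by its brightest probe set, 6 genes read higher and 4 lower in Hopx-null lungs, and 52.2% of all genes read higher. The median log2 difference was 0.18 over the 10 genes and 0.01 over all genes. Differences of 0.4 or more in size were found for 3 of the 10 genes (Fos, Egr2 and Atf3) and for 5.49% of all genes. The larger differences went with a larger spread: the median SD between lungs of 1 genotype was 0.37 over these genes and 0.15 over all genes.

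**Figure D1:**
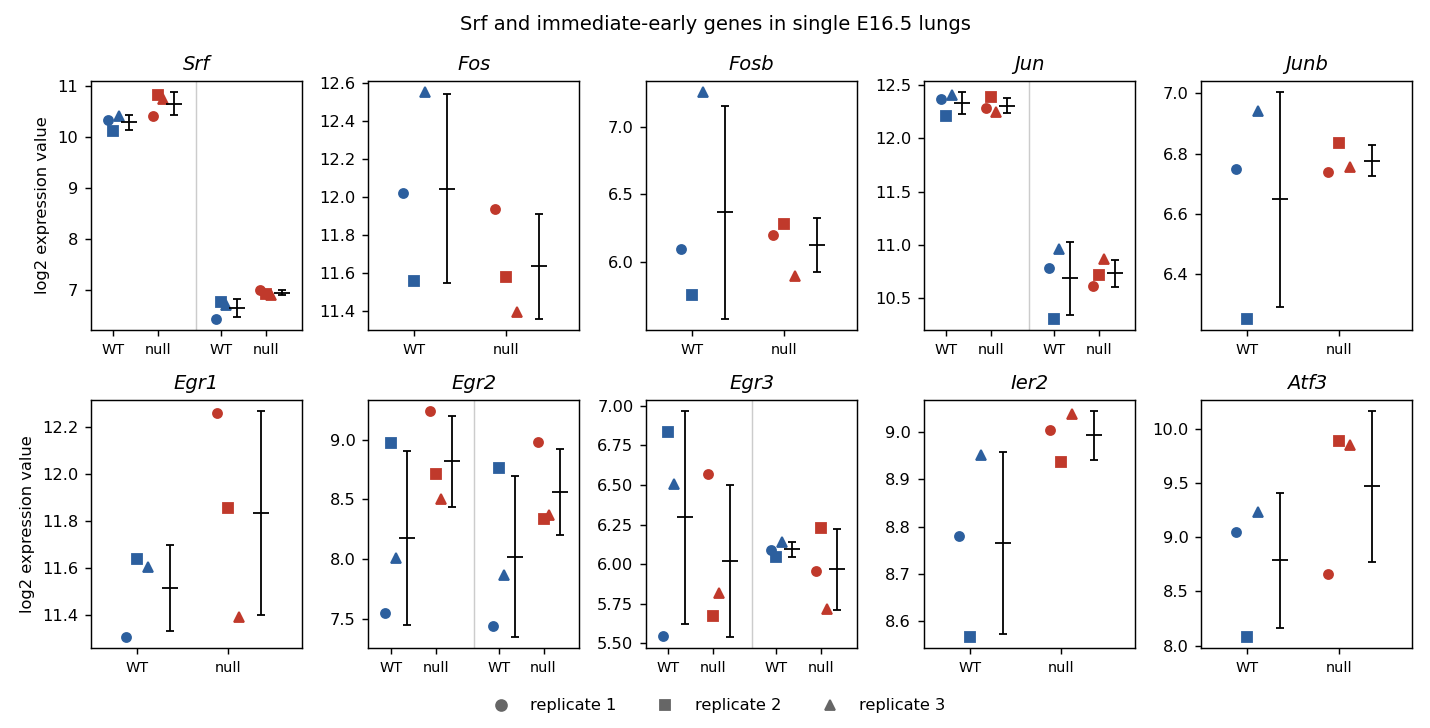
Log2 expression values (vertical axis, a separate range in each panel) of the 10 genes in 3 wild-type (WT, blue) and 3 Hopx-null (null, red) lungs. Each point is 1 lung, its shape gives the replicate number, bars give mean ± SD, and a grey line separates the brighter (left) from the dimmer probe set where a gene has 2. The Hopx-null lungs of Srf lie above all wild-type lungs at the dimmer probe set and just overlap them at the brighter one, while the groups of Fos, Fosb, Junb, Egr1, Egr2, Egr3 and Atf3 overlap widely.

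Srf itself read higher without Hopx at both of its probe sets, by amounts that did not pass the test over all probe sets. At the brighter probe set (suffix s_at, whose probes can match more than 1 transcript) the Hopx-null lungs read 10.41, 10.82 and 10.74 in replicates 1 to 3 and the wild-type lungs 10.34, 10.13 and 10.41. The groups only just overlapped, since Hopx-null replicate 1 lay a hair below wild-type replicate 3, both at 10.41 after rounding. The log2 difference was 0.36 (95% interval 0.03 to 0.70, limma), a 1.29-fold higher signal (limma eBayes, Benjamini-Hochberg, adjusted p = 0.878). At the dimmer probe set the Hopx-null lungs read 7.01, 6.93 and 6.91 and the wild-type lungs 6.44, 6.78 and 6.72. Here all 3 Hopx-null lungs lay above all 3 wild-type lungs, by a log2 difference of 0.30 (95% interval 0.04 to 0.57, limma). This was the only 1 of the 14 probe sets whose groups did not overlap, and the groups did not overlap at 10.1% of all probe sets (5.6% higher in Hopx-null lungs). Leaving out each lung in turn, the difference at the brighter probe set lay between 0.28 and 0.49. Over the 6 lungs the 2 probe sets of Srf varied together only loosely (Pearson r = 0.470, exact permutation p = 0.346; Spearman rho = 0.429, exact permutation p = 0.419).

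Atf3, a stress-induced bZIP factor of the ATF family that can pair with JUN proteins, had a large but variable difference. Replicates 1 to 3 read 8.66, 9.89 and 9.85 without Hopx and 9.05, 8.08 and 9.23 with it. Hopx-null replicates 2 and 3 were the highest of the 6 lungs, whereas Hopx-null replicate 1 lay below 2 of the wild-type lungs. The log2 difference of 0.68 (95% interval -0.32 to 1.69, limma) did not pass limma's test. With wild-type replicate 2 left out it was 0.33, and with Hopx-null replicate 1 left out 1.08. Ier2, a small nuclear protein named for its early induction, varied least among genes with a positive difference: 9.00, 8.94 and 9.04 in Hopx-null lungs against 8.78, 8.57 and 8.95 in wild-type lungs. Only wild-type replicate 3 reached into the Hopx-null range, and the log2 difference was 0.23 (95% interval -0.05 to 0.50, limma).

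The Fos genes, which encode AP-1 subunits that need a JUN partner to bind DNA, read lower on average in Hopx-null lungs, with a wide spread. Replicates 1 to 3 of Fos were at 11.94, 11.58 and 11.39 without Hopx and at 12.02, 11.56 and 12.55 with it. The highest lung was wild-type replicate 3 and the lowest Hopx-null replicate 3, yet wild-type replicate 2 lay below 2 Hopx-null lungs. The log2 difference was -0.41 (95% interval -1.04 to 0.22, limma), and it was -0.15 without wild-type replicate 3. Fosb read 6.20, 6.28 and 5.90 in Hopx-null lungs and 6.10, 5.76 and 7.25 in wild-type lungs. Wild-type replicate 3 alone stood above the rest, and the log2 difference of -0.24 (95% interval -1.12 to 0.64, limma) became 0.20 without it.

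The Jun genes, whose products pair with FOS or with each other, showed little difference between genotypes. At the brighter probe set Jun read 12.28, 12.38 and 12.25 in Hopx-null lungs and 12.37, 12.21 and 12.40 in wild-type lungs, a log2 difference of -0.02 (95% interval -0.25 to 0.20, limma). That interval leaves room for changes of up to about 1.19-fold lower or 1.15-fold higher. The dimmer Jun probe set had a log2 difference of 0.05 (95% interval -0.38 to 0.47, limma), so the 2 probe sets differ in sign around 0. Junb read 6.74, 6.83 and 6.76 in Hopx-null lungs and 6.75, 6.25 and 6.94 in wild-type lungs. The Hopx-null lungs lay inside the wild-type range, with a log2 difference of 0.13 (95% interval -0.29 to 0.55, limma), which was -0.07 without wild-type replicate 2.

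Egr1 and Egr2 read higher on average in Hopx-null lungs, with overlapping groups. Egr1, an early target of SRF in many cells, read 12.26, 11.85 and 11.39 in replicates 1 to 3 without Hopx, and 11.30, 11.64 and 11.60 with it. Hopx-null replicates 1 and 2 were the highest lungs and replicate 3 lay among the wild-type lungs, for a log2 difference of 0.32 (95% interval -0.21 to 0.85, limma). It was 0.11 without Hopx-null replicate 1 and 0.54 without Hopx-null replicate 3. Egr2, best known for its part in hindbrain patterning and in Schwann cells, read 9.24, 8.72 and 8.50 in Hopx-null lungs and 7.55, 8.97 and 8.01 in wild-type lungs at its brighter probe set. Wild-type replicate 2 lay above 2 Hopx-null lungs, and the log2 difference of 0.64 (95% interval -0.25 to 1.53, limma) ranged from 0.33 to 1.04 as each lung was left out. The dimmer Egr2 probe set gave 0.54 and followed the brighter one closely over the 6 lungs (Pearson r = 0.990, exact permutation p = 0.00278; Spearman rho = 0.943, exact permutation p = 0.0167).

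Egr3, which is needed for muscle spindles, went the other way and its probe sets did not follow each other. At the brighter probe set it read 6.57, 5.67 and 5.82 in Hopx-null lungs and 5.54, 6.84 and 6.51 in wild-type lungs, so that 1 wild-type lung was the lowest of all and another the highest. The log2 difference was -0.28 (95% interval -1.17 to 0.62, limma) there and -0.13 (95% interval -0.46 to 0.20, limma) at the dimmer probe set. At the brighter one it became -0.65 on leaving out wild-type replicate 1, and -0.0061 on leaving out wild-type replicate 2. Over the 6 lungs the 2 probe sets showed no relation (Pearson r = -0.005, exact permutation p = 0.996; Spearman rho = -0.371, exact permutation p = 0.497). Both lay near the middle of the arrays, between the 38.3 and 51.7 percentiles of signal. So did Fosb (40.5 to 55.9), Junb (45.6 to 52.7) and the dimmer Srf probe set (47.7 to 53.2). Egr1 and Fos lay at or above the 93.6 percentile in every lung.

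**Figure D2:**
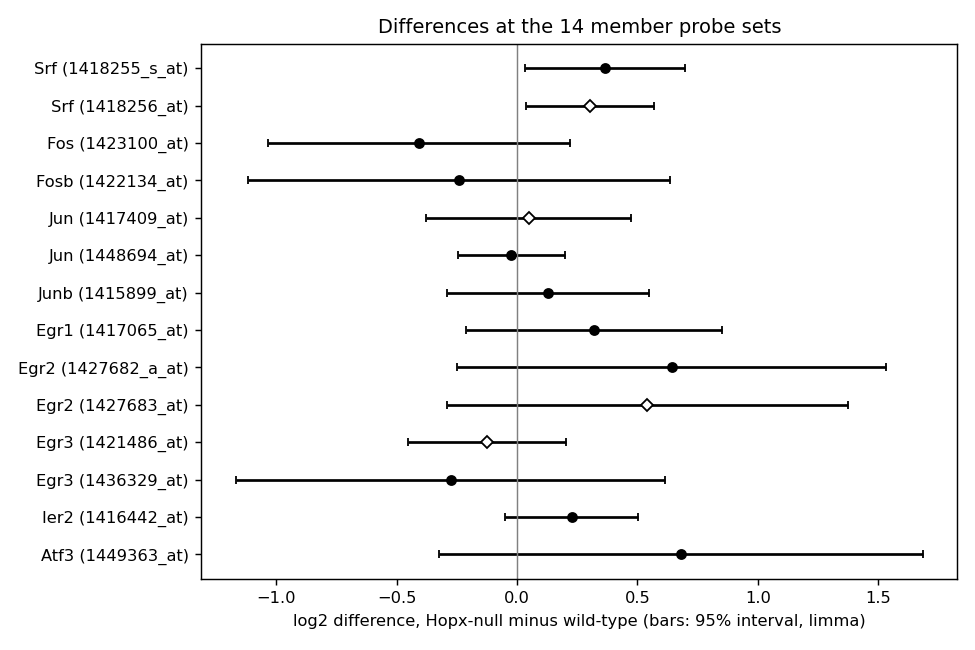
Log2 difference, Hopx-null minus wild-type (horizontal axis), at each of the 14 probe sets with its 95% interval from limma. Filled points are the brightest probe set of a gene and open points the other; only the intervals of the 2 Srf probe sets, before adjustment, leave out 0.

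The 10 genes were then compared with each other lung by lung. Pearson's r was computed over the 6 lungs for all 45 pairs of genes, with exact two-sided permutation over 720 pairings. No pair passed after Benjamini-Hochberg adjustment over the 45 (smallest adjusted p = 0.188 for r and 0.375 for Spearman's rho, exact permutation), and 4 pairs had an unadjusted exact permutation p under 0.05 for r. The median r was 0.135, and 31 of the 45 pairs were above 0. What follows is therefore a description of these 6 lungs.

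The genes did not vary as 1 block. The lungs named next are those at the brightest probe set of each gene. Wild-type replicate 3 had the highest value of Fos, Fosb, Jun and Junb, and wild-type replicate 2 the lowest of Srf, Fosb, Jun, Junb, Ier2 and Atf3. Wild-type replicate 1 had the lowest value of Egr1, Egr2 and Egr3. Hopx-null replicate 1 was highest for Egr1 and Egr2, and Hopx-null replicate 2 for Srf and Atf3. The dimmer probe set of Srf was instead highest in Hopx-null replicate 1 (7.01) and lowest in wild-type replicate 1 (6.44). That of Egr3 was lowest in Hopx-null replicate 3 (5.71), while those of Jun and Egr2 kept the same highest and lowest lungs. Across all genes, wild-type replicate 3 was the highest lung for 21.3% and wild-type replicate 2 the lowest for 14%. Wild-type replicate 3 also had the highest mean of the heat shock list, 10.79 against 10.49 to 10.70 in the other lungs. Most genes of that list were nevertheless highest in another lung.

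**Figure D3:**
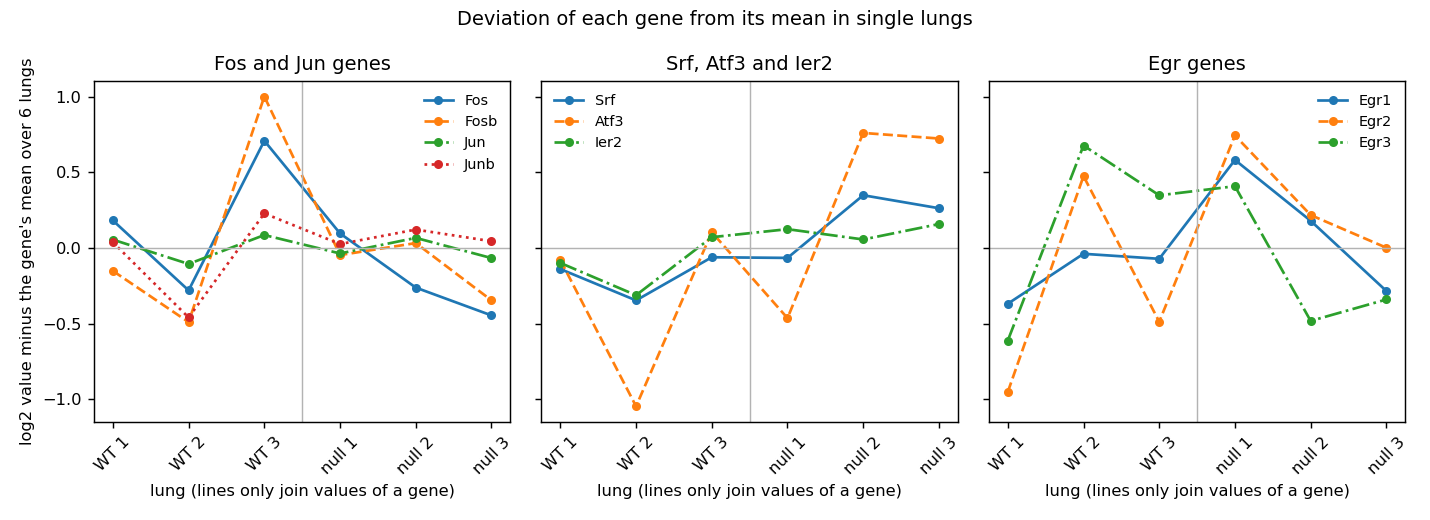
Log2 value of each gene, by its brightest probe set, minus its own mean over the 6 lungs (vertical axis) in wild-type (WT) and Hopx-null (null) replicates 1 to 3. The Fos and Jun genes peak in WT 3, Srf and Atf3 are highest in null 2 and null 3, and the 3 Egr genes are lowest in WT 1; lines join the values of a gene and imply no order.

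Among the 4 Fos and Jun genes all 6 pairs were positively correlated, with r from 0.495 to 0.864, and among the 3 Egr genes all 3 pairs, with r from 0.452 to 0.775. Between these families, r ranged from -0.627 to 0.230 with a median of -0.228 over 12 pairs. With the genotype means subtracted, r was 0.671 to 0.891 within the Fos and Jun genes and 0.688 to 0.886 within the Egr genes. Wild-type replicate 3 carried part of the first relation: without it r within the Fos and Jun genes ran from 0.214 to 0.813. Wild-type replicate 1, the lowest lung for every Egr gene at its brightest probe set, did so for the second. Without it r within the Egr genes ran from 0.229 to 0.678, with a median of 0.247 against 0.548 over all 6 lungs. The Fos and Jun genes were not separate from Srf, Atf3 and Ier2. Junb had a higher r with Ier2 (0.825), Atf3 (0.742) and Srf (0.623) than with Fos (0.495). Over the 12 pairs between those groups of genes the median r was 0.312, it was -0.186 without wild-type replicate 2, and with the genotype means subtracted all 12 pairs were above 0 with a median of 0.664. Fos and Fosb had the second highest r of all pairs (Pearson r = 0.864, exact permutation p = 0.0361, adjusted 0.494; Spearman rho = 0.714, exact permutation p = 0.136, adjusted 0.613). That r was 0.324 without the 2 lungs farthest from the median of Fos (Hopx-null replicate 3 and wild-type replicate 3). It rests on wild-type replicate 3, since it was 0.472 without that lung alone and 0.861 without Hopx-null replicate 3 alone. Fos and Egr1, often used together as markers of recent stimulation, showed no clear relation (Pearson r = 0.0394, exact permutation p = 0.938, adjusted 0.961; Spearman rho = -0.0857, exact permutation p = 0.919, adjusted 0.962; r = -0.0835 without the farthest 2 lungs). With the genotype means subtracted r was 0.419, and with each lung left out it ran from -0.216 to 0.217.

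Srf and Atf3 were the most alike pair (Pearson r = 0.941, exact permutation p = 0.00833, adjusted 0.188; Spearman rho = 0.943, exact permutation p = 0.0167, adjusted 0.375). Without the 2 lungs farthest from the median of Srf, r was 0.834, and with the genotype means subtracted it was 0.979. Leaving out each lung in turn, it stayed between 0.898 and 0.962. With each gene taken as the mean of its probe sets r was 0.707. Only 0.271% of 11437 genes with signal above the median of the arrays had an r with Srf as high as that of Atf3. Junb and Ier2 followed after Fos and Fosb (Pearson r = 0.825, exact permutation p = 0.0986, adjusted 0.494; Spearman rho = 0.371, exact permutation p = 0.497, adjusted 0.829). That relation rested on wild-type replicate 2, without which r was 0.0334, and r was -0.0281 without the 2 lungs farthest from the median of Junb.

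The lowest correlations all involved an Egr gene. Egr3 and Atf3 had the lowest (Pearson r = -0.755, exact permutation p = 0.108, adjusted 0.494; Spearman rho = -0.657, exact permutation p = 0.175, adjusted 0.716; r = -0.932 without the farthest 2 lungs). Srf and Egr3 followed (Pearson r = -0.645, exact permutation p = 0.224, adjusted 0.671; Spearman rho = -0.429, exact permutation p = 0.419, adjusted 0.786; r = -0.317 without the farthest 2 lungs). For this pair r was -0.338 with each gene taken as the mean of its probe sets. With each lung left out it ran from -0.983 to -0.411. For Jun and Egr2, Pearson r was -0.627 (exact permutation p = 0.2, adjusted 0.643; Spearman rho = -0.486, exact permutation p = 0.356, adjusted 0.762; r = -0.707 without the farthest 2 lungs). Srf and Egr2, the genes with CArG boxes in the windows searched, showed no clear relation over the 6 lungs (Pearson r = 0.0313, exact permutation p = 0.944, adjusted 0.961; Spearman rho = -0.0857, exact permutation p = 0.919, adjusted 0.962; r = -0.264 without the farthest 2 lungs). With the genotype means subtracted r was -0.751, and all 9 pairs of an Egr gene with Srf, Atf3 or Ier2 were then below 0 (-0.854 to -0.146). Without that subtraction 4 of these 9 pairs were above 0 over the 6 lungs, with a median r of -0.231. Without wild-type replicate 2, also with no subtraction, 5 of the 9 were above 0, with a median of 0.0087 and a highest r of 0.752.

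**Figure D4:**
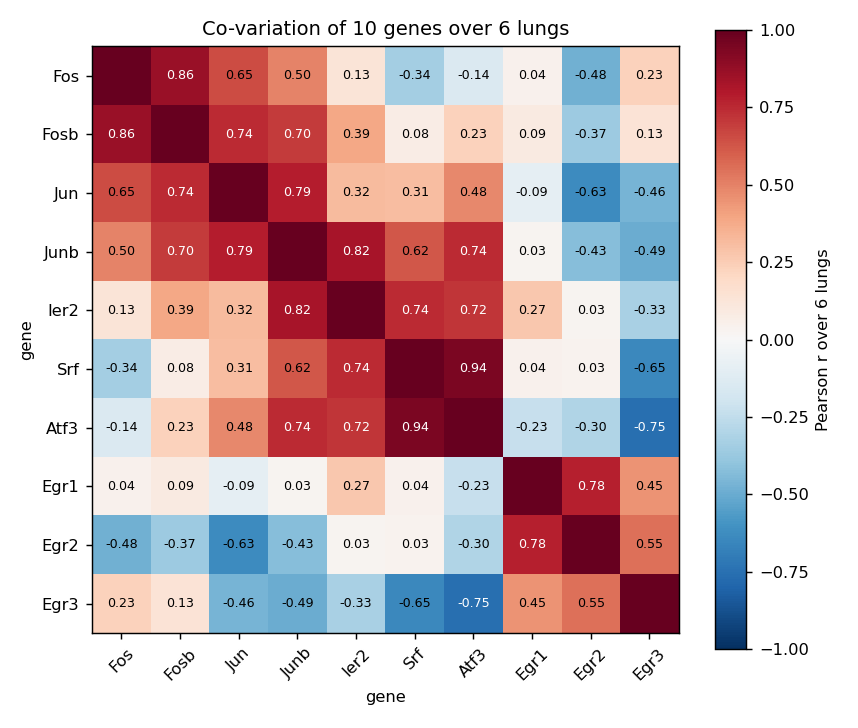
Pearson r over the 6 lungs for every pair of the 10 genes (rows and columns), from -1 in blue to 1 in red, with the value in each cell. Pairs within the Fos and Jun genes (0.495 to 0.864) and within the Egr genes are positive, as are Srf, Atf3 and Ier2 with each other and with Junb; none of the 45 values passed after adjustment.

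Among 11437 genes with signal above the median of the arrays, those closest to Fos over the 6 lungs were the sulfotransferase gene Chst15 (r = 0.991), Zfp800 (r = 0.989), the chaperone gene Dnajb6 (r = 0.985), the interferon-induced GTPase gene Irgm1 (r = 0.984) and Parp12 (r = 0.984). For scale, 5.29% of these genes reached an r of 0.8 with Fos. By the same measure, Fosb was matched or exceeded by 2.82% of genes, Jun by 12.4% and Junb by 20.4%. Closest to Srf were Rabl3 (r = 0.982), the amino acid transporter chain Slc3a2 (r = 0.981), the Bmp receptor gene Acvr1 (r = 0.980), Hspbap1 (r = 0.980) and Scmh1 (r = 0.970). An r of 0.8 with Srf was reached by 3.04% of genes.

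The cofactors through which SRF acts did not pass the test. ELK proteins bring ERK signals to SRF, and myocardin and its relatives bring actin signals. Of 7 genes listed (Elk1, Elk3, Elk4, Mrtfa, Mrtfb, Myocd and Hdac2, a histone deacetylase that Hopx can recruit), 0 passed limma's test over all probe sets and 0 had an unadjusted p under 0.05. Of these, 3 read higher and 4 lower in Hopx-null lungs, with a median log2 difference of -0.03. The genes of this list are named after their values were seen. Hdac2 differed most, at -0.35 (95% interval -1.12 to 0.42, limma), and read 9.50 in Hopx-null replicate 3 and 10.56 to 10.78 in the other 5 lungs. Myocd, the muscle-restricted cofactor, differed by -0.28 (95% interval -0.76 to 0.21, limma) and read highest in wild-type replicate 3. Mrtfa differed by 0.09 (95% interval -0.12 to 0.30, limma).

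No partner of AP-1 passed the test either. Of 11 genes measured, 0 passed limma's test and 0 had an unadjusted p under 0.05, with 2 higher, 9 lower and a median log2 difference of -0.04. Batf3 differed by -0.31, the small Maf factor gene Maff by -0.26 and Fosl1 by -0.18. Maff shared the high value of wild-type replicate 3 with Fos: it read 9.84 there and 8.50 to 9.13 in the other lungs.

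Other immediate-early genes differed in both directions. Of 32 genes, 0 passed limma's test over all probe sets and 2 had an unadjusted p under 0.05, with 13 higher and 19 lower and a median log2 difference of -0.05. Nr4a1, an orphan nuclear receptor induced with Fos and Egr1 in many cells, had the largest difference. It read 8.29, 8.76 and 8.20 in replicates 1 to 3 without Hopx, and 7.33, 7.24 and 7.88 with it. All Hopx-null lungs lay above all wild-type lungs, as in 6.21% of all genes (10.5% did not overlap in either direction), and the log2 difference was 0.93 (95% interval 0.41 to 1.45, limma; eBayes with Benjamini-Hochberg, adjusted p = 0.878). Its relatives Nr4a2 and Nr4a3, added as family members after their values were seen, differed by 0.22 and -0.53. The stress gene Gadd45g read 9.28, 9.31 and 9.32 in Hopx-null lungs and 9.82, 9.37 and 10.39 in wild-type lungs, again without overlap and now lower, as in 4.31% of all genes. Its log2 difference was -0.55 (95% interval -1.12 to 0.02, limma). Sik1, a salt-inducible kinase gene, differed by -0.54 and was highest in wild-type replicate 3 at 8.98. Plk2, a kinase gene named here after its values were seen because it had the other unadjusted p under 0.05, differed by 0.54 (95% interval 0.02 to 1.05, limma).

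Genes listed as targets of SRF and its actin-regulated cofactors differed little. Of the 12 listed genes, most of them cytoskeletal, 0 passed limma's test and 0 had an unadjusted p under 0.05. In Hopx-null lungs 4 read higher and 8 lower, with a median log2 difference of -0.02. Their groups did not overlap for 4 of 12 genes, 1 higher (Zyx) and 3 lower (Tuft1, Tpm1 and Mcl1), where 10.5% of all genes did not overlap, but the differences were small. The focal adhesion gene Zyx differed by 0.11 (95% interval -0.08 to 0.31, limma), Tuft1 by -0.18 (95% interval -0.40 to 0.04, limma), the tropomyosin gene Tpm4 by -0.09, Tpm1 by -0.07 and Mcl1 by -0.06. Tpm1 and Mcl1 were named after their values were seen.

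Feedback inhibitors of the ERK pathway, and heat shock genes, were compared in the same way. Of 8 ERK feedback and Nab genes, 0 passed limma's test and 0 had an unadjusted p under 0.05, with 2 higher and 6 lower. Nab1 and Nab2, whose products bind EGR proteins and repress their activity, differed by -0.23 (95% interval -0.61 to 0.15, limma) and -0.17 (95% interval -0.54 to 0.20, limma), and the ERK phosphatase gene Dusp5 by -0.15. Of 8 heat shock genes, 0 passed limma's test and 0 had an unadjusted p under 0.05, with 2 higher and 6 lower. Hspb1 differed by -0.31, Hspa1b by -0.28 and Hspa5 by 0.10. Both Hspb1, at 11.78, and Hspa1b, at 9.78, were highest in wild-type replicate 3, the lung that was highest for Fos.

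**Figure D5:**
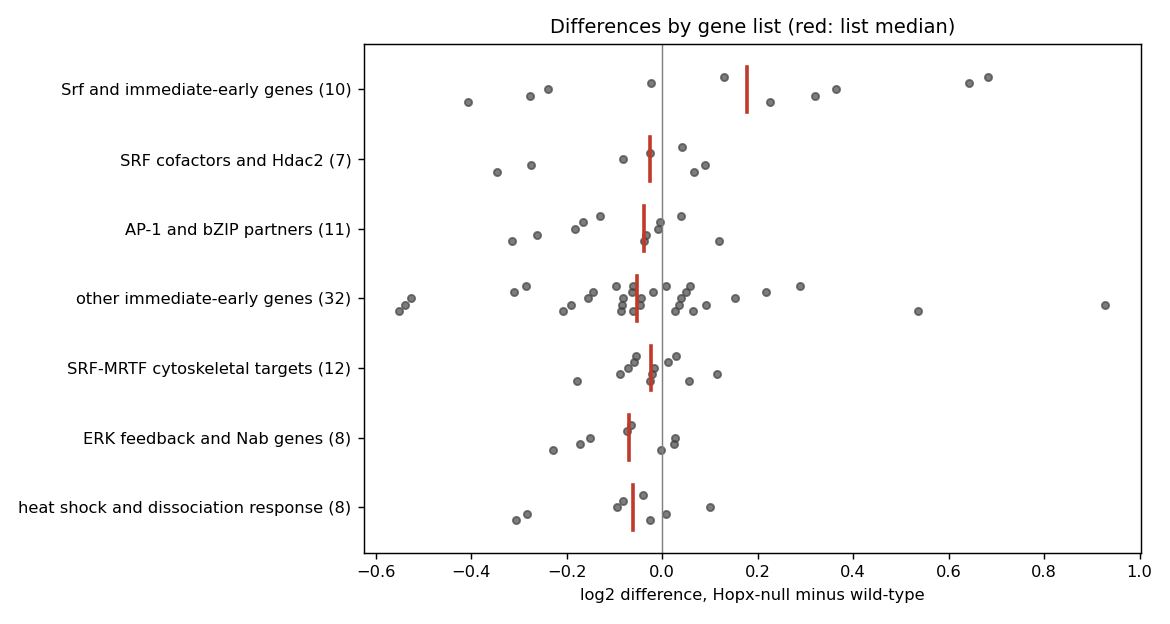
Log2 difference, Hopx-null minus wild-type (horizontal axis), of each gene in the 10-gene set and in 6 related lists (number of genes in brackets, Hopx left out); each point is a gene by its brightest probe set, its height within a row is only for display, and the red line is the list median. The 10-gene set spans -0.41 to 0.68 around a median of 0.18, and the medians of the other lists lie between -0.07 and -0.02.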

How the data were processed

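Total RNA from 6 lungs was measured on single-channel Affymetrix arrays. The deposited values were read as log2 values, a base inferred from their range. The submitters' processing notes list RMA, which corrects background, equalises arrays and summarises probes, and Partek 6.6, without saying which did what. Equalised arrays cannot show a shift of most transcripts. After 64 control probe sets were left out, 45037 were tested unfiltered. A gene is represented by its brightest probe set over the 6 lungs.

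The genotype fit used limma 3.58.1 (R 4.3.3; lmFit, then eBayes), with Benjamini-Hochberg adjustment over all probe sets and a threshold of 0.05; intervals come from the same fit. An exact permutation test of 3 against 3 lungs cannot go below 0.1. The genotype fit was tested on simulated data with independent normal noise. The correlations, the covariate fits and the motif search were not tested in that way.

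The 10 genes, the lists and the tests were chosen with earlier results of these data known. Named were all 10 genes, Hopx, the genes of each related list that passed or else the 3 largest differences (exceptions are stated), the 5 genes closest to Fos and to Srf (uncharacterised names skipped), the 3 highest and 3 lowest gene pairs, and Fos with Egr1. Alternatives were repeated normalization, median centring, filters, variance models, array weights, the replicate block, covariates, other probe sets and each lung left out.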

Additional observations from a re-analysis of the deposited data

How the results depend on the processing

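Of 168 alternative values for the 10 genes, 158 had a limma test (the averages of probe sets had none), and 0 passed after Benjamini-Hochberg adjustment; the smallest adjusted p was 0.487. The median difference over the 10 genes stayed above 0 in every alternative, from 0.060 to 0.30 with each lung left out, and 5 to 8 of the genes then read higher. The count of called probe sets, 2 over all lungs, was 1 with the replicate block, 1 with Y-linked signal as a covariate and 1 with 3' bias at Gapdh as a covariate, and ranged from 1 to 23 with each lung left out; the 2 highest counts, 23 and 12, came on leaving out wild-type replicate 1 and Hopx-null replicate 1. The labels do not say whether lungs with the same replicate number share anything else. Deviations of same-numbered lungs correlated at -0.0958, -0.121 and 0.183, too few values to settle it. With the block 0 of the 10 genes were called, as without it. The direction turned in 11 of the 168 values, for 4 genes, none of them called. Fosb was 0.017 with the Y-linked covariate and 0.10 with the 3' bias covariate, Egr3 was 0.49 with the Y-linked covariate, and Jun was 2.52e-06 with array weights, 0.049 with the 3' bias covariate, 0.012 as the mean of its probe sets and 0.048 at the more variable probe set. Leaving out each lung, differences ranged from -0.55 to 0.20 for Fosb, from -0.083 to 0.013 for Jun and from -0.069 to 0.28 for Junb. The median r of the 45 pairs, 0.135, was 0.419 with genotype means subtracted and 0.266 with probe sets averaged, and ranged from 0.0230 to 0.305 with each lung left out. The cause of these changes was not tested.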
